A study of Mus musculus with 16 samples.

Results

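The genotype by LPS interaction asks whether lipopolysaccharide (LPS), a component of the bacterial cell wall, had a different effect on hippocampal RNA in Tspo knockout mice than in wild-type mice. It is the LPS effect in the knockout (KO LPS minus KO PBS) minus the LPS effect in wild type (WT LPS minus WT PBS), computed for every gene from all 16 libraries. A value above 0 means that a gene's LPS effect was more positive in the knockout, and a value below 0 means that it was more positive in wild type. The contrast was tested for 16269 of the 19449 genes in the count table, those with enough counts.

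The libraries come from hippocampus of mice labelled 3 month old, in 4 groups of 4 libraries: wild type injected with PBS, wild type injected with LPS, Tspo knockout injected with PBS and Tspo knockout injected with LPS. PBS is the saline vehicle. The labels give no LPS dose, route or interval, no strain, and no description of the knockout allele. No source says whether the replicates are separate animals, so each p-value measures the spread between these libraries.

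TSPO is a protein of the outer mitochondrial membrane that binds cholesterol and is widely used as an imaging marker of activated glia. LPS is sensed by the receptor TLR4, chiefly on microglia and vascular cells in and around the brain, and sets off NF-kappaB signalling, cytokine release and a later interferon response. Interferons, with transcription factors such as those of the IRF family, raise a shared set of antiviral and antigen presentation genes. An interaction can come from a change in the LPS response of either genotype, or from a difference between the genotypes before LPS, and the contrast alone does not separate these.

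Several libraries stood apart. Tspo, the deleted gene, had 5, 10 and 14 counts in KO PBS replicates 2, 3 and 4 and 7 to 20 in the KO LPS libraries, but 98 in the library labelled KO PBS replicate 1, close to the 62 to 194 of the WT PBS libraries. WT LPS replicate 1 lacked most of the inflammatory profile of WT LPS replicates 2, 3 and 4: its mean log2 difference from the WT PBS mean over 43 interferon-stimulated genes was -0.02, against 2.12, 2.10 and 1.97 in the others. It was above every WT PBS library for activated endothelium genes (0.42) and leukocyte genes (0.40), against 1.36 or more in the others. For complement, reactive astrocyte, antigen presentation, cytokine, activated microglia and NF-kappaB genes it was not above them all. It also shared with WT PBS replicate 1 a low level of choroid plexus genes, with scores of -3.49 and -3.40 on the same scale against -0.19 to 2.32 in the other 14 libraries. Each title also holds 1 of 9 codes that no source explains. WT PBS replicates 1, 2 and 3 share a code, WT LPS replicates 2, 3 and 4 share another with KO PBS replicate 4, and WT PBS replicate 4 and WT LPS replicate 1 are the only PBS and LPS libraries of 1 genotype that share a code. A term for the code leaves the interaction without an estimate, so the contrast and the codes cannot be told apart. Y-linked genes were expressed in 6 libraries (WT PBS replicate 4, WT LPS replicate 1, KO PBS replicates 2 and 3, KO LPS replicates 3 and 4), a sex difference the labels do not give. All 16 libraries expressed the hippocampal neuron markers examined, such as Prox1 and Zbtb20. Total counts ran from 30198619 to 50009041.

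The interaction passed for 187 genes, 90 above 0 and 97 below 0. These are 1.15% of the genes tested in either direction, 0.553% above and 0.596% below (edgeR quasi-likelihood test, Benjamini-Hochberg adjusted p under 0.05 over all genes tested). The genes above 0 were lower in the wild-type LPS libraries and include Wls, Il33 and the myelin genes Ugt8a, Mog and Gjb1. The genes below 0 were higher there and include Irf7, Ifitm2, Ifitm3, Gbp2, Gbp4, H2-Q6 and Slc25a28. The median interaction was 0.84 on the log2 scale over the 90 genes and -1.20 over the 97, against -0.01 over all genes tested. The adjusted p-values lie close together, from 0.0349 to 0.04997, and the next gene in order, Gfap, missed at 0.0509. At an unadjusted p under 0.05 there were 3520 genes, or 21.6%.

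The wild-type arm carried most of both sets. All 90 genes above 0 were lower in WT LPS than in WT PBS, with a median LPS effect of -0.69 in wild type and 0.12 in the knockout. All 97 genes below 0 were higher in WT LPS, with a median of 0.75 in wild type and -0.19 in the knockout. The LPS effect was larger in size in wild type for 86 of the 90 and for 93 of the 97. In wild type the LPS effect itself passed for 87 of the 90 and for 93 of the 97, where over all genes tested 4.72% passed higher and 3.85% lower. In the knockout the LPS effect passed for no gene of either set and for no gene of the whole table by the same test, with 1120 genes at an unadjusted p under 0.05. These components were used in the contrast, so they describe the sets and support nothing.

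A smaller knockout difference in the opposite direction runs through the sets. The LPS effects in the 2 genotypes had opposite signs in 69 of the 90 genes above 0 and in 90 of the 97 below 0, together 85.0% of the genes that passed, against 56.7% of all genes tested. The knockout PBS libraries were also displaced toward WT LPS: KO PBS was below WT PBS in 89 of the 90 genes above 0 and above WT PBS in 82 of the 97 below 0, none of these differences passing on its own (over all genes tested 0.0307% passed higher in KO PBS and 0.00615% lower). Under LPS the knockout was above wild type in all 90 and below it in all 97, passing for 84 and 97 of them, where over all genes 4.61% passed higher and 7.28% lower. All of these groups enter the contrast, so their displacement is part of what was selected, and these sign counts support nothing. The mean log2 difference from WT PBS over the 90 genes was between -0.403 and -0.256 in the KO PBS libraries and between -0.141 and 0.014 in the KO LPS libraries. Over the 97 genes it was between 0.102 and 0.218 in KO PBS and between -0.161 and 0.002 in KO LPS. On both scores every KO LPS library was closer to 0 or on the far side of it from every KO PBS library.

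**Figure D1:**
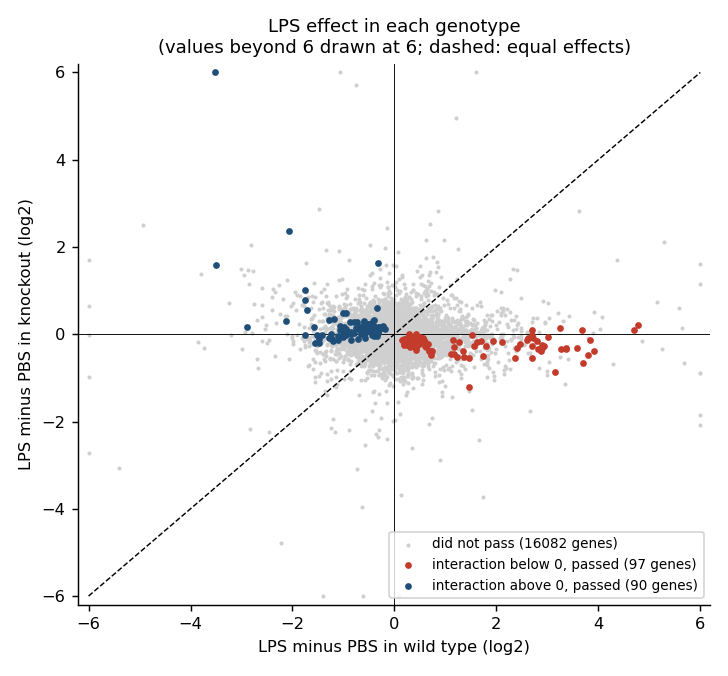
LPS minus PBS in wild type (x axis, log2) against LPS minus PBS in the knockout (y axis, log2), one point per gene tested, with the 90 genes above 0 in the interaction in blue and the 97 below 0 in red. The red and blue points spread along the wild-type axis and most sit near 0 on the knockout axis.

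**Figure D2:**
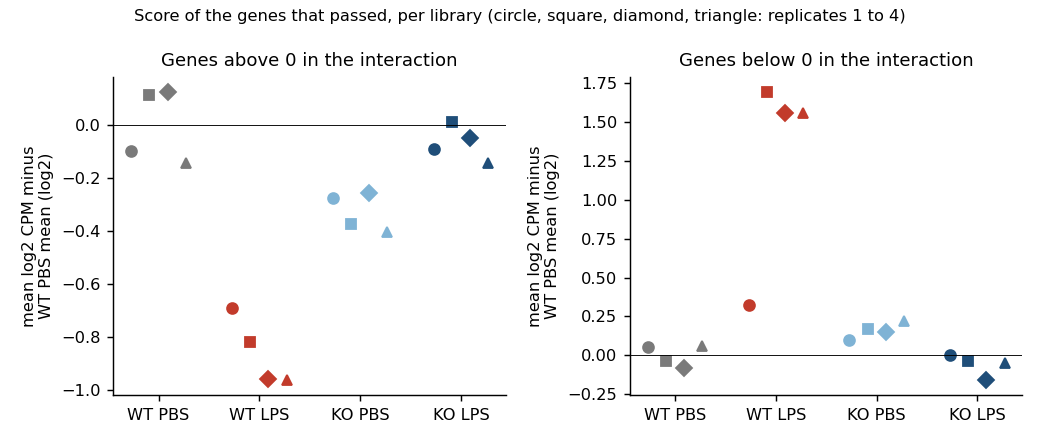
Mean log2 CPM difference from the WT PBS mean (y axis) over the genes above 0 (left) and below 0 (right) in each of the 16 libraries, by group (x axis). WT LPS replicate 1 lies at -0.688 among the WT LPS libraries on the left and at 0.327 on the right, where the other 3 lie between 1.555 and 1.695.

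Because WT LPS replicate 1 stood apart, its place among the genes that passed is given as a description. With the WT PBS mean set at 0 and the mean of WT LPS replicates 2 to 4 at 1, its median position was 0.66 over 88 of the genes above 0 and 0.31 over 89 of those below 0, those with a large enough distance between the means. It lay beyond every WT PBS library, on the side of the other LPS libraries, in 82 of the 90 genes and in 70 of the 97. Leaving it out, 2655 genes passed (16.1%, with 7.21% above and 8.88% below 0), the 187 among them. Its median position was -0.00196 over 1894 of the 2412 genes that were tested in both fits and passed only without it. The genes were selected with these same values, with the library in the group or out of it, so the positions support nothing.

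The number of genes that passed changed greatly when single libraries were left out, with the adjusted p-values of the 187 genes all close to the threshold. No gene passed without WT PBS replicate 2, WT PBS replicate 3, WT LPS replicate 3, KO PBS replicate 2, KO PBS replicate 3, KO LPS replicate 1, KO LPS replicate 2 or KO LPS replicate 4, each left out in turn. There were 3 genes without KO PBS replicate 1, 1 without WT LPS replicate 4, 1 without KO PBS replicate 4, 1 without KO LPS replicate 3, 43 without WT LPS replicate 2, 176 without WT PBS replicate 1 and 947 without WT PBS replicate 4. At an unadjusted p under 0.05 (edgeR), the leave-one-out fits where no gene passed held 2831 to 3552 genes, against 3520 with all libraries. The lowest was without WT PBS replicate 3 and the highest without KO LPS replicate 1. WT PBS replicates 2 and 3 were much more alike than any other pair within a group, with a chi-square of 4.07 per gene against 13.7 to 127, and with their counts summed as 1 library no gene passed. With each library left out, the signs of the 187 genes held, but the genes had been chosen with all of those libraries.

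Sccpdh, Echdc1, Wls and Slc25a28 were named with the contrast and are described first. Sccpdh (ENSMUSG00000038936, chr1:179668210-179687189, plus strand, GRCm38 in this and the next 3 genes) is a protein related to saccharopine dehydrogenase that is found on lipid droplets. It stood at 59.3, 66.6, 64.1 and 65.1 CPM (counts scaled to library size) in WT PBS replicates 1 to 4, at 42.7, 38.6, 45.5 and 45.4 CPM in WT LPS, at 57.9, 56.7, 59.2 and 53.4 CPM in KO PBS and at 59.9, 58.7, 58 and 55.8 CPM in KO LPS. All 4 WT LPS libraries, replicate 1 included, were below all other 12, and the knockout groups overlapped. Its interaction of 0.60 ± 0.08 (log2, SE) had the smallest adjusted p of the table (0.0349, edgeR), made of -0.57 in wild type and 0.03 in the knockout. Sccpdh passed in 17 of 30 alternative fits, with a value between 0.55 and 0.65 in all of them. These fits reuse all or part of the libraries with which the gene was named, so they support nothing.

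Echdc1 (ENSMUSG00000019883, chr10:29313166-29347469, plus strand) encodes ethylmalonyl-CoA decarboxylase, an enzyme that removes a side product of fatty acid synthesis. Its levels were 25.8, 27.3, 27.2 and 28.5 CPM in WT PBS, 21.7, 21.4, 19.5 and 19.1 CPM in WT LPS, 24.8, 25.8, 25.5 and 24.4 CPM in KO PBS and 26.9, 28.2, 27.4 and 25.6 CPM in KO LPS. The WT LPS libraries were again the lowest 4 of the 16, and KO LPS and KO PBS overlapped through 1 library. The interaction was 0.52 ± 0.08 (adjusted p = 0.0388, edgeR), the sum of a wild-type fall of 0.41 and a knockout difference of 0.11 that did not pass.

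Wls (ENSMUSG00000028173, chr3:159839672-159938664, plus strand) encodes Wntless, the membrane carrier that takes lipid-modified Wnt proteins to the cell surface. It stood at 34.5, 40.5, 38.8 and 34.5 CPM in WT PBS, at 29.5, 20.1, 23.5 and 24.5 CPM in WT LPS, at 26.7, 30.8, 32.2 and 30.5 CPM in KO PBS and at 35.4, 35.2, 37.7 and 39.9 CPM in KO LPS. The 4 groups were laid out in opposite order in the genotypes: WT LPS was below WT PBS without overlap, and KO LPS was above KO PBS without overlap. The interaction of 0.91 ± 0.14 (adjusted p = 0.0388, edgeR) combined -0.60 in wild type with 0.30 in the knockout, where the adjusted p was 0.703. KO PBS also lay below WT PBS in every library, by 0.31 on the log2 scale (adjusted p = 0.918, edgeR).

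Slc25a28 (ENSMUSG00000040414, chr19:43663801-43674881, minus strand) encodes mitoferrin 2, which carries iron into mitochondria. Its levels were 35.5, 34.2, 32.2 and 39.1 CPM in WT PBS, 42, 56.5, 52.7 and 49.5 CPM in WT LPS, 38.8, 40.2, 35.3 and 38.2 CPM in KO PBS and 35.7, 34.9, 33.2 and 35 CPM in KO LPS. WT LPS was above every other library, with replicate 1 nearest to them, and only KO PBS replicate 3 reached into the KO LPS range. The interaction was -0.65 ± 0.11 (adjusted p = 0.0432, edgeR), from 0.51 in wild type and -0.14 in the knockout. Echdc1, Wls and Slc25a28 each passed in 15 of the 30 alternative fits. Their values ran from 0.45 to 0.58 for Echdc1, from 0.54 to 1.05 for Wls and from -0.76 to -0.24 for Slc25a28.

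**Figure D3:**
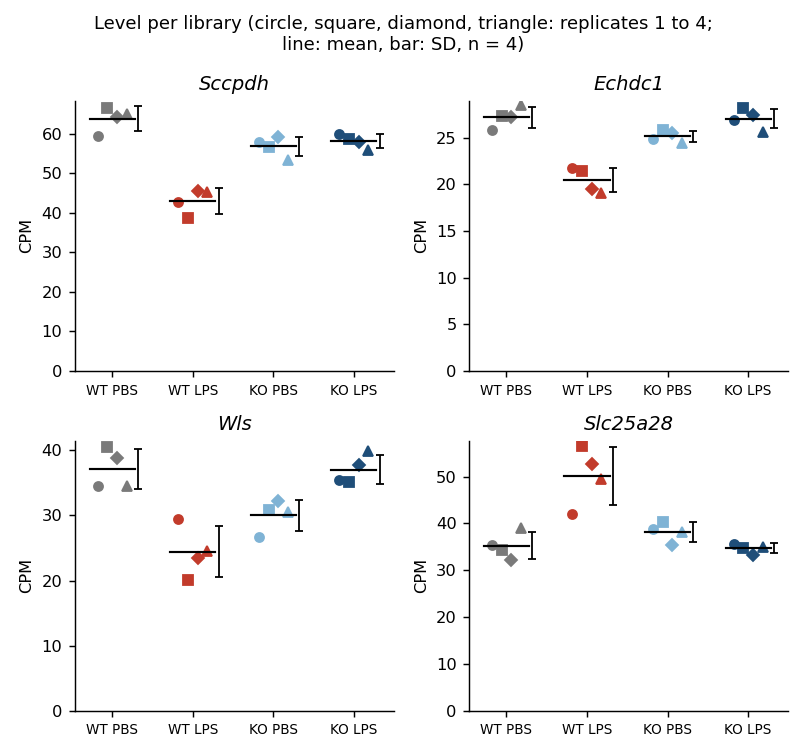
CPM of Sccpdh, Echdc1, Wls and Slc25a28 (y axes from 0) in each library by group (x axis), with the group mean as a line and the SD as a bar, n = 4. The 4 WT LPS libraries stand apart from the other 12 in Sccpdh, Echdc1 and Slc25a28, while in Wls the highest of them, 29.5 CPM, lies above the lowest KO PBS library at 26.7 CPM.

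Between WT PBS replicate 4 and WT LPS replicate 1, the only PBS and LPS libraries of 1 genotype with the same title code, the log2 difference was -0.61 for Sccpdh, -0.39 for Echdc1, -0.22 for Wls and 0.10 for Slc25a28. The same pair of libraries is all that wild type has, 1 per treatment, among the 6 libraries with Y-linked expression. In those 6 alone the interaction was 0.59 for Sccpdh, 0.45 for Echdc1, 0.54 for Wls and -0.24 for Slc25a28. In the 10 without Y-linked expression it was 0.65, 0.58, 1.05 and -0.76, and 1820 genes passed. The 4 genes were named with the contrast that all of these libraries entered, so these values support nothing. No gene passed in the 6 libraries (edgeR, 1124 at an unadjusted p under 0.05).

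Across the 16 libraries the genes with log2 CPM profiles most like each of the 4 were found by Pearson's r, as a description over libraries that share groups and depth. Sccpdh was most like Hadhb (r = 0.921), a subunit of the mitochondrial trifunctional protein of fatty acid oxidation, then Nsdhl (0.914), a cholesterol synthesis enzyme, and Zfp931 (0.913). Echdc1 was most like Car2 (0.941), carbonic anhydrase 2, and the myelin genes Ugt8a (0.94) and Gjb1 (0.94). Wls was most like Map1b (0.935), Rab11a (0.928) and Slc39a12 (0.914). Slc25a28 was most like Snrpb (0.977), a spliceosome protein, then Timm44 (0.958), part of the mitochondrial protein import motor, and Ercc1 (0.957). With the mean of each group removed, r over these neighbours lay between 0.414 (Sccpdh with Nsdhl) and 0.894 (Slc25a28 with Snrpb). Between pairs of the 4 genes themselves r, with the group means left in, ran from -0.935 to 0.877. The 4 genes were named with a contrast of these groups, so a large r among them follows in part from the group means and supports nothing.

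Promoter sequence was read for the genes that passed, from 250 bases before to 50 bases after each start in the RefSeq table for GRCm38.p6. Searched on both strands were the interferon-stimulated response element (ISRE), spelled as GAAA, any 2 bases and GAAA again, and the NF-kappaB motif. The 250 bases before the start are shown for Sccpdh, which has the smallest p and no match, for Wls, which fell in WT LPS and holds an ISRE match, and for Ifitm2 and Ccl19, the 2 genes below 0 with an ISRE match and the smallest p. Capitals mark the ISRE match, and each sequence is on the strand of its gene. The windows are chr1:179667981-179668230 (plus) for Sccpdh, chr3:159839400-159839649 (plus) for Wls, chr7:140955962-140956211 (minus) for Ifitm2 and chr4:42756366-42756615 (minus) for Ccl19.
Sccpdh: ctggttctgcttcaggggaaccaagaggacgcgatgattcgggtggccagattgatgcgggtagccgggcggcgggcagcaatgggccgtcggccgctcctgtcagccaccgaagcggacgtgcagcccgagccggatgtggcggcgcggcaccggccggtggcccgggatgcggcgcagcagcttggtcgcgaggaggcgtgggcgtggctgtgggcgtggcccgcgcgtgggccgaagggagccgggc
Wls: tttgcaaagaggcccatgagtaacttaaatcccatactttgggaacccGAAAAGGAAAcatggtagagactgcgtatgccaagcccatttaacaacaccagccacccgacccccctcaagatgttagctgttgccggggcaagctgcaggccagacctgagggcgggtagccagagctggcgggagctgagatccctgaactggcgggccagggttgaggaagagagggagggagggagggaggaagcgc
Ifitm2: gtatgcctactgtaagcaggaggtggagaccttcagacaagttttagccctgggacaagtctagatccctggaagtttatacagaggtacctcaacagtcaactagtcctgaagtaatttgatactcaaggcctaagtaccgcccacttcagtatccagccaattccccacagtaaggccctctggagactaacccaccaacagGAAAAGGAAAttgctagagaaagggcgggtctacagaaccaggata
Ccl19: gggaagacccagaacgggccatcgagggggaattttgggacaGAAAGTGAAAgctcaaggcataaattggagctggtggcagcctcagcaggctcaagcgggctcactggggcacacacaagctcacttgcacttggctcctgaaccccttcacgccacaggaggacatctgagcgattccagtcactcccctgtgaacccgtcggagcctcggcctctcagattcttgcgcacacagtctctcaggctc

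The ISRE match began 202 bases before the start of Wls, 46 before that of Ifitm2 and 208 before that of Ccl19. Of the 90 genes above 0, 67 had a promoter in the table, and 2 of those (3.0%) held an ISRE match, Wls and Tmprss5. Of the 97 below 0, 72 had one, and 7 (9.7%) held an ISRE match: Ifitm2, Ccl19, Pilra, Ifitm3, Isg15, Gbp2 and Cybb. The share was 3.7% over the 12139 genes tested that have a promoter there, and 3.4% over all 32851 promoters. NF-kappaB was matched in 9 genes above 0 (13.4%) and 13 below 0 (18.1%), against 12.3% of genes tested and 8.5% of all promoters. A match describes the letters and is not evidence of binding.

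Genes above 0 were led by transcripts that fell in the WT LPS libraries, replicate 1 included, with no LPS effect in the knockout that passed. Ugt8a, the enzyme that makes galactosylceramide for myelin, stood at 62.6, 88.2, 86.6 and 78.6 CPM in WT PBS and at 39, 23.4, 16.7 and 14.6 CPM in WT LPS. In the knockout it stood at 70.1, 67.5, 88.8 and 66.6 CPM under PBS and at 71, 75.7, 68.5 and 72.7 CPM under LPS. WT LPS was the lowest group in every library and the knockout groups overlapped (interaction 1.73 ± 0.32, adjusted p = 0.0432, edgeR).

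Mog, a surface glycoprotein of the myelin sheath, had an interaction of 1.19 ± 0.25 (adjusted p = 0.0489, edgeR). It lay between 62.3 and 80 CPM in WT PBS, between 18 and 40.4 CPM in WT LPS, between 62.6 and 73.7 CPM in KO PBS and between 61.7 and 66.8 CPM in KO LPS. Gjb1, the gap junction protein connexin 32 of oligodendrocytes, lay between 16 and 23.6 CPM in WT PBS, between 4.59 and 10.8 CPM in WT LPS and between 15.2 and 21.9 CPM in the knockout libraries. Pmp22, a peripheral myelin protein also made by other cells, had an interaction of 0.83 ± 0.15 (adjusted p = 0.0432, edgeR), from 22 to 24.9 CPM in WT PBS and 12 to 16.9 CPM in WT LPS. In all 3 the WT LPS libraries were below every other library.

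Il33, an alarmin of the IL-1 family that glia keep in the nucleus, passed above 0. It was the only gene to pass of the 11 tested on the cytokine and chemokine list, where 0.553% of all genes passed above 0. Ccl19, a chemokine that passed below 0, is not on that list. The list median was -0.66, which turned to 0.26 with a CPM minimum. When WT LPS replicate 1 was left out, 3 of the 11 passed above 0 and 6 below, beside 7.21% and 8.88% of all genes. Il33 stood at 48.4, 62.4, 65.6 and 59.5 CPM in WT PBS, 37.9, 34.6, 25 and 21.6 CPM in WT LPS, 47.7, 43.4, 51.3 and 45.9 CPM in KO PBS and 54.2, 53.4, 47.3 and 56.4 CPM in KO LPS. It was lowest in the 4 WT LPS libraries, and the interaction was 1.15 ± 0.21 (adjusted p = 0.0432, edgeR). Slc39a12, a zinc importer, showed the same layout with an interaction of 0.90 ± 0.16, and Mmp15, a membrane-bound metalloprotease, with 1.07 ± 0.19 (adjusted p = 0.0432 each, edgeR). Serpinb1a, an inhibitor of leukocyte proteases, had 8.15 to 12.1 CPM in WT PBS, 1.95 to 5.19 CPM in WT LPS and 7.72 to 12.2 CPM in the knockout (1.73 ± 0.33, adjusted p = 0.0432, edgeR).

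Low transcripts gave some of the larger values. Nkx2-9, a homeobox transcription factor, stood at 1.16, 0.844, 0.996 and 0.639 CPM in WT PBS and at 0.0916, 0.18, 0.0881 and 0.101 CPM in WT LPS, with 0.364 to 0.905 CPM in the knockout. WT LPS replicate 1 was as low as the other 3, and the interaction was 3.06 ± 0.48 (adjusted p = 0.0388, edgeR). Tmprss5, a transmembrane serine protease, had 1.51 to 2.4 CPM in WT PBS, 0.323 to 0.733 CPM in WT LPS and 1.04 to 1.79 CPM in the knockout (2.42 ± 0.38, adjusted p = 0.0388, edgeR). Smyd1, a histone methyltransferase known from muscle, fell from 1.86 to 3.72 CPM in WT PBS to 0.58 to 1.19 CPM in WT LPS. In the knockout it had 1.45 to 1.91 CPM under PBS and 2.09 to 3.27 CPM under LPS, 2 groups that did not overlap (2.27 ± 0.38, adjusted p = 0.0432, edgeR). Pkp1, a desmosome protein at 0.548 CPM or less in every library, had an interaction of 4.43 ± 0.82 (adjusted p = 0.0432, edgeR). Mob3b and Sema6a were not as low. Mob3b, a kinase activator of the MOB family at 1.94 to 8.76 CPM, had 1.28 ± 0.22 (adjusted p = 0.0432, edgeR). Sema6a, an axon guidance protein at 26.1 to 44.8 CPM, had 0.71 ± 0.13 (adjusted p = 0.0432, edgeR).

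Lef1 and Tnnt1 passed beside markers of neighbouring brain regions. Lef1, a transcription factor of the Wnt pathway that is abundant in thalamus, stood at 10.5, 23.5, 26.3 and 7.03 CPM in WT PBS, 5.8, 3.6, 4.08 and 6.36 CPM in WT LPS, 6.9, 5.61, 7.28 and 4.6 CPM in KO PBS and 10.5, 17.6, 10 and 11.1 CPM in KO LPS. WT PBS replicates 2 and 3 were far above replicates 1 and 4. Tnnt1, a troponin of slow muscle, stood at 9.08, 31.3, 34 and 2.16 CPM in WT PBS, at 1.16 to 3.07 CPM in WT LPS, at 1.81 to 10.8 CPM in KO PBS and at 8.08 to 24.7 CPM in KO LPS. The interactions were 2.77 ± 0.50 (adjusted p = 0.0432) and 5.09 ± 1.05 (adjusted p = 0.0489, edgeR). Of the 32 listed marker genes of neighbouring regions 27 were tested, Lef1 and Tnnt1 among them, and the other 5 had too few counts. Their summed level was 752 to 1570 CPM in WT PBS, 725 to 815 CPM in WT LPS, 607 to 1570 CPM in KO PBS and 931 to 1580 CPM in KO LPS. The median interaction of the 27 was 0.71. Lef1 and Tnnt1 were the only 2 of them to pass, where 0.553% of all genes passed above 0. Without WT LPS replicate 1, 7 of the 27 passed above 0, beside 7.21% of all genes. The part of neighbouring tissue in these results was not tested. Nefh, the heavy neurofilament subunit, was likewise highest in WT PBS replicates 2 and 3 (161 and 156 CPM, against 68.3 to 118 CPM in the other 2), with an interaction of 1.53 ± 0.34 (adjusted p = 0.04997, edgeR).

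Among named genes, those below 0 with the smallest p were Mamstr, Sbsn and Slc25a28, and several interferon-induced and immune genes followed. Ifitm2, a membrane protein that blocks virus entry, stood at 5.8, 5.1, 4.48 and 6.31 CPM in WT PBS and at 7.63, 24.5, 25.4 and 25.7 CPM in WT LPS. In the knockout it stood at 6.17, 5.1, 5.65 and 6.07 CPM under PBS and at 5.5, 4.49, 4.99 and 5.75 CPM under LPS. WT LPS replicate 1 was just above the WT PBS range, and the knockout groups overlapped (interaction -2.09 ± 0.39, adjusted p = 0.0432, edgeR). Without that library the value was -2.36.

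Irf7, the transcription factor that amplifies type I interferon production, was at 1.44 CPM in WT LPS replicate 1 and at 21.4, 23 and 20.2 CPM in replicates 2, 3 and 4. Every other library lay between 0.997 and 1.91 CPM. Its interaction of -3.69 ± 0.76 passed (adjusted p = 0.0489, edgeR), although WT LPS replicate 1 lay within the WT PBS range. Ifitm3 followed the same layout, with 6.32 CPM in WT LPS replicate 1, 59.4 to 64.8 CPM in the other 3 and 4.88 to 7.31 CPM elsewhere (-3.19 ± 0.64, adjusted p = 0.0489, edgeR). Gbp4 and Gbp2, interferon-induced GTPases that attack pathogen vacuoles, had interactions of -3.70 ± 0.76 (adjusted p = 0.0489) and -3.10 ± 0.70 (adjusted p = 0.04997, edgeR), with WT LPS replicate 1 at the WT PBS level in both. Ctla2a, an inhibitor of cysteine proteases, was at 2.93 CPM in that library and at 27.7 to 44.9 CPM in the other 3 (-3.22 ± 0.72, adjusted p = 0.04997, edgeR). Ifitm, Gbp and H2 genes have close copies, and how reads were divided among copies is uncertain.

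Some genes below 0 were above WT PBS in all 4 WT LPS libraries. Trex1, the exonuclease that clears DNA from the cytosol, stood at 3.05, 2.96, 3.12 and 3.09 CPM in WT PBS, 4.15, 7.26, 7.78 and 7.98 CPM in WT LPS, 3.65, 3.09, 3.72 and 3.66 CPM in KO PBS and 3.31, 3.63, 3.29 and 2.71 CPM in KO LPS. Replicate 1 rose least, but above every other group (-1.28 ± 0.24, adjusted p = 0.0432, edgeR). Ccl19, the chemokine that draws cells with the receptor CCR7, had 0.0996 to 0.266 CPM in WT PBS and 0.794, 1.96, 1.44 and 1.12 CPM in WT LPS, with 0.168 to 0.364 CPM in the knockout (-2.93 ± 0.55, adjusted p = 0.0432, edgeR). Clec4a3, a C-type lectin of myeloid cells, had 0.702 CPM in WT LPS replicate 1 and 1.85 to 3.38 CPM in the other 3, against 0.213 to 0.522 CPM in WT PBS and 0.317 to 0.738 CPM in the knockout (-3.23 ± 0.59, adjusted p = 0.0432, edgeR). Csf2rb2, a receptor chain for interleukin 3, had an interaction of -2.01 ± 0.38, Upp1, uridine phosphorylase, -1.63 ± 0.30, and Trafd1, a feedback inhibitor of TLR signalling, -0.56 ± 0.11 (adjusted p = 0.0432 each, edgeR). Among MHC genes, H2-Q6 had -3.27 ± 0.61 and H2-T10 -1.72 ± 0.32 (adjusted p = 0.0432 each, edgeR). H2-T10 is annotated as a polymorphic pseudogene and had 11 to 71 counts per library. In H2-Q6 the KO LPS libraries (0.548 CPM or less) also lay below the KO PBS libraries (0.588 CPM or more).

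In other genes below 0 the KO LPS libraries lay below KO PBS while WT LPS lay above WT PBS. Sbno2, a helicase-related protein induced by IL-10 and IL-6 family cytokines, stood at 26.2, 23.1, 24.1 and 26.8 CPM in WT PBS, 30, 42.6, 42.2 and 39.8 CPM in WT LPS, 26.3, 30.8, 26.6 and 29.6 CPM in KO PBS and 25, 25.9, 18.6 and 23 CPM in KO LPS. All KO LPS libraries were below all KO PBS libraries, and all WT LPS libraries above all WT PBS libraries (-0.92 ± 0.16, adjusted p = 0.0432, edgeR). Mamstr, a coactivator of MEF2 factors, had 1.53 to 2.21 CPM in WT PBS, 2.66 to 3.79 CPM in WT LPS, 2.14 to 2.46 CPM in KO PBS and 1.58 to 1.8 CPM in KO LPS (-1.20 ± 0.20, adjusted p = 0.0432, edgeR). Sbsn, a secreted protein known from skin, had -0.88 ± 0.15, and Med24, a Mediator subunit with a narrow range of 107 to 140 CPM over all libraries, -0.34 ± 0.06 (adjusted p = 0.0432 each, edgeR). Zfp646, a zinc finger protein, had -0.31 ± 0.06 (adjusted p = 0.0477, edgeR). In Sbsn, Med24 and Zfp646 the groups were also apart in opposite directions in the 2 genotypes. Over all genes tested the PBS and LPS groups did not overlap in 8.62% in wild type and 6.55% in the knockout, and the genotypes did not overlap in 3.28% under PBS and 14.3% under LPS. Over the 187 genes these layouts were seen in wild type in 77 of the 90 above 0 and 69 of the 97 below, and in the knockout in 19 and 22.

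**Figure D4:**
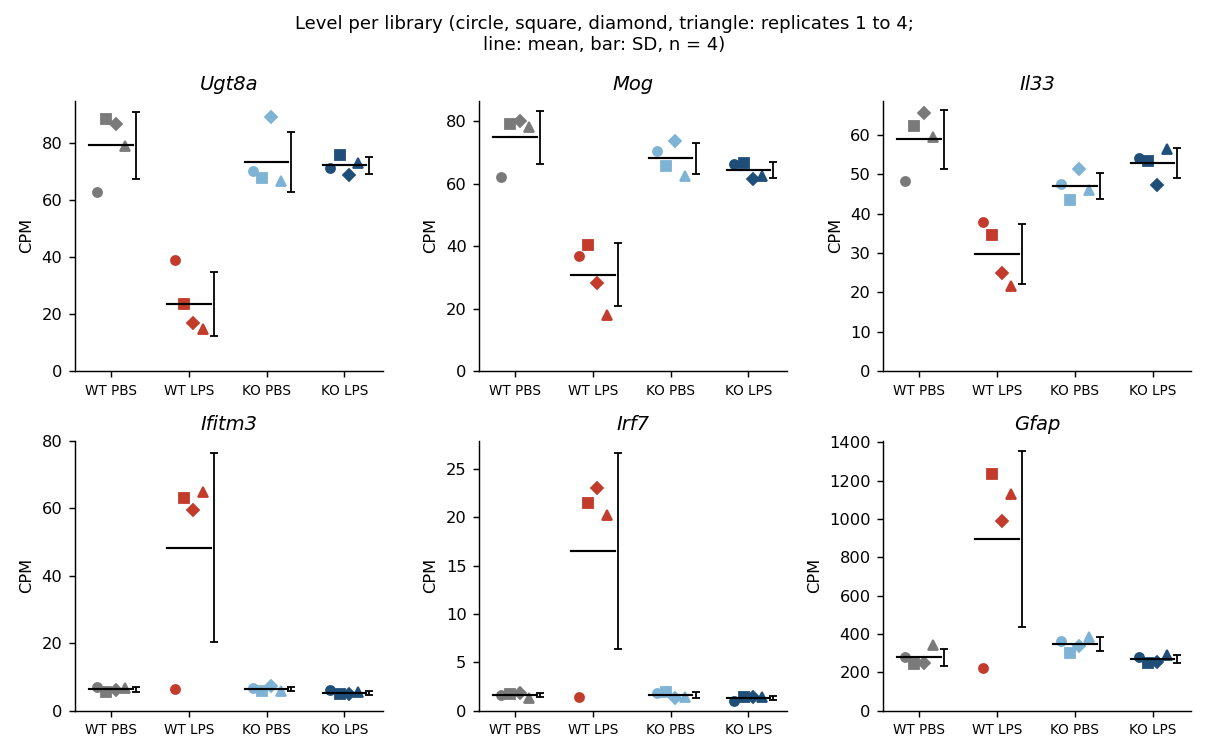
CPM (y axes from 0) of Ugt8a, Mog and Il33, which passed above 0, of Ifitm3 and Irf7, which passed below 0, and of Gfap, which just missed, in each library by group (x axis), with the group mean as a line and the SD as a bar, n = 4. WT LPS replicate 1 (red circle) lies below every WT PBS library in the upper 3 panels, part of the way to the other WT LPS libraries in Ugt8a and Il33, and at or below the WT PBS level in the lower 3.

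Tspoap1, which encodes a protein that binds TSPO, also passed below 0 (chosen after its values were seen). It stood at 361 to 376 CPM in WT PBS, 441 to 505 CPM in WT LPS, 344 to 403 CPM in KO PBS and 300 to 375 CPM in KO LPS, an interaction of -0.46 ± 0.10 (adjusted p = 0.04997, edgeR). Tspo itself stood at 2.52, 2.59, 2.06 and 5.17 CPM in WT PBS and at 2.63, 11.9, 9.4 and 10.1 CPM in WT LPS. In the knockout it stood at 2.33, 0.152, 0.28 and 0.47 CPM under PBS and at 0.486, 0.366, 0.274 and 0.209 CPM under LPS. The interaction of -2.76 ± 0.94 did not pass (adjusted p = 0.117, edgeR). Without WT LPS replicate 1 it was -3.06 (adjusted p = 0.0291, edgeR) and without the library labelled KO PBS replicate 1 it was -1.28 (adjusted p = 0.353, edgeR).

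Gene lists chosen with earlier results of these data known were described by counts, without a set test. Of 31 lists 19 are described, and the other 12 hold markers of other cell types and tissues and mitochondrial and control genes. Of 43 tested interferon-stimulated genes, 9 passed below 0 and 0 above, and all 43 values were negative (median -1.68, against -0.01 over all genes). The 9 were Ifitm3, Irf7, Gbp2, Oasl2, Oas2, Isg15, Iigp1, Ifi204 and Gbp6. Ifi204, a DNA sensor, had -4.60 ± 1.0, and Iigp1, an immunity-related GTPase, -2.74 ± 0.60 (adjusted p = 0.04997 each, edgeR). Over all genes 0.596% passed below 0, and 8373 of 16269 values were negative. Without WT LPS replicate 1, 40 of the 43 passed below 0, where 8.88% of all genes did.

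Of 23 antigen presentation genes 3 passed below 0, H2-Q6, the immunoproteasome subunit Psmb8 (-2.80 ± 0.64) and the MHC class I regulator Nlrc5 (-3.07 ± 0.71, adjusted p = 0.04997 each, edgeR), with a median of -1.16 over the list. Of 29 reactive astrocyte genes 2 passed below 0, Psmb8 and Gbp2, with a median of -1.69. Gfap, the intermediate filament of astrocytes, stood at 225 CPM in WT LPS replicate 1, between 989 and 1234 CPM in the other 3 WT LPS libraries and between 243 and 384 CPM in the other 12 libraries, and its -2.06 ± 0.47 just missed (adjusted p = 0.0509, edgeR). With WT LPS replicate 1 left out, 17 of the 23 and 22 of the 29 passed below 0. Over all genes the share below 0 was 0.596%, and 8.88% without that library.

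None of 18 complement genes passed, with a median of -1.53. C1qb, a chain of the complement trigger C1q, had -1.40 ± 0.32 (adjusted p = 0.0514), and Cfb, of the alternative pathway, -5.58 ± 1.34 (adjusted p = 0.0535, edgeR). None of 30 TLR4 and NF-kappaB genes passed, with a median of -0.42. Bcl3, an atypical NF-kappaB inhibitor, had -3.78 ± 0.89 (adjusted p = 0.0517, edgeR). In the fit with all libraries, 0.596% of all genes passed below 0 and 0.553% above. With WT LPS replicate 1 left out, 13 of the 18 and 10 of the 30 passed below 0, and 1 of the 30 above, beside 8.88% and 7.21% of all genes.

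Of 24 activated microglia genes 2 passed below 0, the NADPH oxidase subunit Cybb (-3.60 ± 0.83) and the Fc receptor Fcgr3 (-1.53 ± 0.35, adjusted p = 0.04997 each, edgeR), with a median of -0.87. None of 18 resting microglia genes passed, with a median of 0.12. P2ry12, the ADP receptor of resting microglia, had 20.1 CPM in WT LPS replicate 1, 4.97 to 6.14 CPM in the other 3 and 19.5 to 29.3 CPM elsewhere (1.40 ± 0.46, adjusted p = 0.106; 2.09 and 6.45e-06 without that library, edgeR). Of 17 activated endothelium genes Upp1 and Lrg1, a secreted glycoprotein (-3.90 ± 0.82, adjusted p = 0.04997, edgeR), passed below 0, with a median of -0.91. Of 24 glucocorticoid-responsive genes the metallothionein Mt1 passed below 0 (-1.83 ± 0.41, adjusted p = 0.04997, edgeR), with a median of -1.10. Over all genes 0.596% passed below 0. When WT LPS replicate 1 was left out the counts below 0 were 15 of 24 activated microglia genes, 11 of 17 endothelium genes, 15 of 24 glucocorticoid genes and 3 of 18 resting microglia genes, beside 8.88% of all genes. Above 0 they were 1 of the activated and 6 of the resting microglia genes, beside 7.21% of all genes. In whole tissue, fewer cells of a type and less RNA per cell cannot be told apart.

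Of 10 leukocyte genes with enough counts, among 23 listed, 0 passed, with a median of -0.79. The share over all genes was 1.15%. Without WT LPS replicate 1, 2 of the 10 passed below 0, beside 8.88% of all genes. Their summed level was 14 to 15.5 CPM in WT PBS, 18.6 to 39.4 CPM in WT LPS, 12.2 to 25.4 CPM in KO PBS and 18.1 to 25.3 CPM in KO LPS. S100a8, a calcium-binding protein of neutrophils, was at 0.183 CPM in WT LPS replicate 1, 2.94 to 4.71 CPM in the other 3 and 0.715 CPM or less in the remaining libraries. The part of blood leukocytes in the genes below 0 was not tested.

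Myelin and cholesterol genes had values above 0. Of 22 oligodendrocyte and myelin genes 3 passed above 0, Ugt8a, Mog and Gjb1, none below, and all 22 values were positive (median 0.77). Their mean log2 difference from WT PBS was -0.89, -0.44, -1.12 and -1.39 in the 4 WT LPS libraries, so that replicate 1 was not set apart here, and WT PBS replicate 1 was the lowest of its group at -0.42. Of 25 cholesterol synthesis genes 1 passed, Nsdhl (0.50 ± 0.11, adjusted p = 0.04997, edgeR), and 24 were positive (median 0.55). Here WT LPS replicate 1 was set apart. The mean log2 difference over this list was -0.07 in that library, inside the WT PBS range of -0.14 to 0.13. It was -0.66, -0.37 and -0.62 in WT LPS replicates 2, 3 and 4. Hmgcs1, an early enzyme of cholesterol synthesis, had 0.92 ± 0.23 (adjusted p = 0.0547, edgeR). Over all genes 0.553% passed above 0, and 7896 of 16269 values were positive. Without WT LPS replicate 1, 10 of the 22 and 16 of the 25 passed above 0, where 7.21% of all genes did.

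The lists around the 4 genes named with the contrast hold those genes themselves, and the share of all genes that passed was 1.15%. Of 48 Wnt genes Lef1 and Wls passed above 0 (median 0.20). The Wnt receptor Fzd10, with 2.56 ± 0.60, missed (adjusted p = 0.0514, edgeR). Slc25a28 was the only one of 31 mitochondrial iron, iron-sulfur and haem genes to pass (median -0.09), Echdc1 the only one of 38 acyl-CoA and branched-chain genes (median -0.04), and Sccpdh the only one of 24 lipid droplet and lysine degradation genes (median -0.09). When WT LPS replicate 1 was left out, 9 of the 48 Wnt genes passed above 0 and 3 below. The counts above and below 0 were 3 and 6 of the 31 iron genes and 2 and 10 of the 38 acyl-CoA genes. They were 4 and 6 of the 24 lipid droplet genes, beside 7.21% above and 8.88% below 0 over all genes. None of 19 genes listed as TSPO partners and steroid synthesis genes passed (median 0.08). The list holds Tspo, the deleted gene, but not Tspoap1. Without WT LPS replicate 1, 3 passed above 0 and 2 below, and Tspo was 1 of the 2 below. Acbd3, which binds TSPO, had 0.36 ± 0.08 (adjusted p = 0.0514, edgeR).

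**Figure D5:**
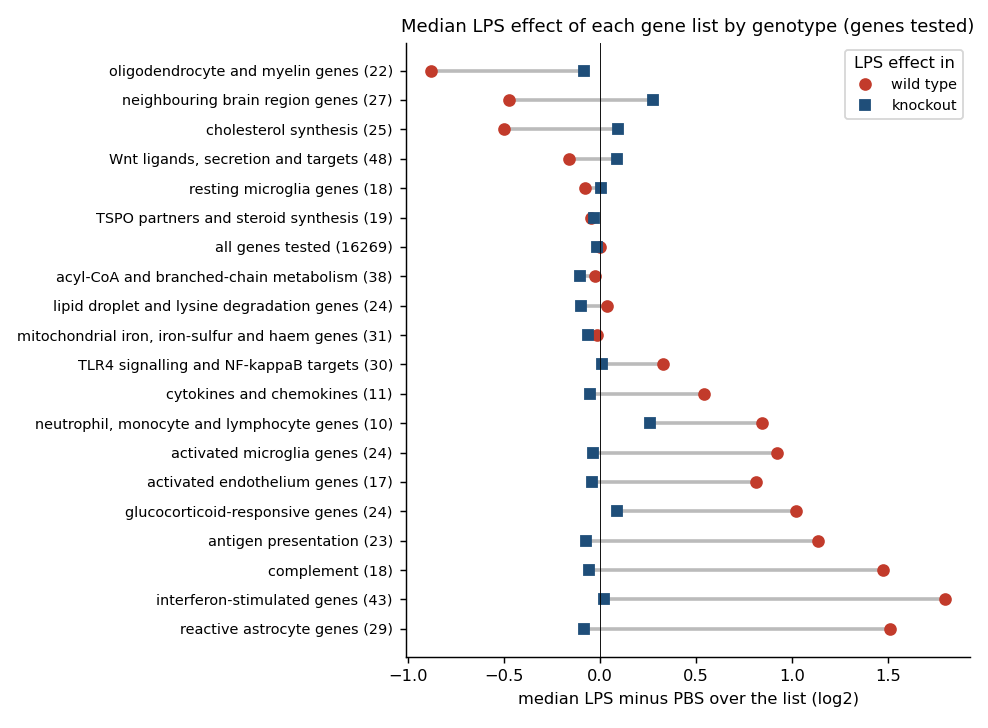
Median LPS minus PBS difference (x axis, log2) over the tested genes of the 19 lists described and of all genes (y axis, with the number of genes), in wild type (red circles) and in the knockout (blue squares). Over these lists the knockout medians lie between -0.10 and 0.28, while the wild-type medians run from -0.88 for the myelin genes to 1.80 for the interferon-stimulated genes. Lists not drawn reach further, with a wild-type median of -2.56 for red blood cell genes and knockout medians of -0.39 for choroid plexus genes and 0.38 for immediate early genes.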

How the data were processed

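RNA from 16 hippocampus libraries was measured by RNA-seq. The deposited table holds the authors' estimated counts per gene, all whole numbers. The submitters' processing notes name Salmon 1.9.0, MultiQC 1.13, DESeq2 and DESeq without giving their roles, and the extraction and library kits are per the labels' protocols. Read strand and the authors' genome build are not given in the sources used here. Gene names and positions were taken from GENCODE M21 (GRCm38), where 105 identifiers (0.0537% of counts) had no entry.

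Genes were kept by filterByExpr, which removed 3180 genes and left 99.97% of counts. TMM scaling and edgeR 4.0.16 quasi-likelihood fits (R 4.3.3) used 1 mean per group and 12 residual degrees of freedom. Benjamini-Hochberg adjustment ran over all 16269 genes tested, with a threshold of 0.05. The SE of a fold change was its size divided by the square root of F. Log2 CPM values used a prior count of 2.

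Members and lists were chosen with earlier results of these data known. Named genes were Tspo, the 4 given genes, up to 15 per direction with the smallest p, up to 5 per direction with the largest change whose mean log2 CPM reached 1, and up to 4 per list by p. Predicted and sex-linked genes were left out of the p and size rankings. Some genes and motifs these rules cover are not reported here.

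Alternatives were other size factors, DESeq2 1.42.0, limma 3.58.1 voom with and without library weights, other filters, robust dispersions, a sex term, a replicate term and leaving out libraries.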

Additional observations from a re-analysis of the deposited data

Results flagged for a closer look

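The interaction itself was noted because it is a tested difference between the genotypes in the effect of LPS, with 187 genes past the threshold.

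In 48 of 388 groups of 4 libraries (12.4%), 1 library of a named gene lay far from the other 3, measured as its gap over the range of the group on the log scale. Among independent values chance does this in about 1 in 20 groups. The named genes were chosen with these data and share the same 16 libraries. The 12.4% therefore cannot be set against that rate. Of the 48, 30 were WT LPS replicate 1. In WT LPS replicate 1 the CPM values so noted were Tspo 2.63, Tmprss5 0.733, Pmp22 16.9, Ifitm2 7.63, Upp1 2.32, Trex1 4.15, Irf7 1.44, Ifitm3 6.32, Gbp2 3.21, Ifi204 0.336, Psmb8 1.68, Nlrc5 0.855, C1qb 29.7, Cfb 0.336, C1ra 2.41, C4b 38.6, Il1a 0.519, Bcl3 0.336, Birc3 2.05, Gfap 225, Cp 16.2, Fcgr3 7.48, Msr1 0.214, P2ry12 20.1, Lrg1 1.01, Ch25h 0.825, Mt1 118, Akr1c14 1.44, S100a9 0.153, S100a8 0.183. In WT PBS replicate 1 the CPM values so noted were Bcl3 0.145, Mt1 140, Mog 62.3, Nkd1 12.6. In KO LPS replicate 1 the CPM values so noted were Slc39a12 41.7, Irf7 0.997. In KO LPS replicate 3 the CPM values so noted were Sbsn 7.4, Lilrb4a 0.0548. In KO PBS replicate 1 the CPM values so noted were Tmprss5 1.66, Mt1 171. In KO PBS replicate 2 the CPM values so noted were Trex1 3.09, Cfb 0.0303. In WT LPS replicate 4 the CPM values so noted were Tnnt1 3.07, Synpo2 15.1. In KO LPS replicate 2 the CPM values so noted were Gjb1 20.5. In KO LPS replicate 4 the CPM values so noted were Tmprss5 1.79. In KO PBS replicate 3 the CPM values so noted were Ifi204 0.392. In WT LPS replicate 3 the CPM values so noted were Tgfbr1 17.8.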

How the results depend on the processing

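The number of genes that passed moved in 29 of 30 alternatives by over 1.5 times. It was 63 with RLE size factors, 1278 with DESeq2, 4029 with limma-voom and library weights, 29 with limma-voom, 39 without a filter on low counts, 42 with a CPM minimum, 40 with sex as a covariate and 78 with robust dispersions. With each library left out in turn it ranged from 0 to 2655. It was 2400 without both WT LPS replicate 1 and KO PBS replicate 1. It was 0 with WT PBS replicates 2 and 3 summed (2875 at an unadjusted p under 0.05), 2364 without both WT PBS replicate 1 and WT LPS replicate 1, 1820 in the 10 libraries without Y-linked expression and 0 in the 6 with it. The last 4 of these were chosen after seeing the data. The cause of these differences was not tested, beyond the fewer libraries in some fits.

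With a replicate block the count was 0 (edgeR, 3392 genes at an unadjusted p under 0.05, smallest adjusted p 0.0699). Whether the replicate numbers pair the libraries is not given, and the correlations do not settle it. Of 24 same-numbered pairs 8 correlated above 0.1, with r from -0.386 to 0.436 over all 24. Of 16 libraries 6 correlated best with their own number.

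The Tspo interaction was -2.74 with DESeq2, -2.45 with limma-voom and library weights, -2.98 without both WT PBS replicate 1 and WT LPS replicate 1 and -3.88 in the 10 libraries without Y-linked expression, past the threshold in each (adjusted p 0.0376, 0.0389, 0.046 and 0.012). With each library left out it ran from -3.125 to -1.28.

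In the 6 libraries with Y-linked expression, with 1 wild-type library per treatment, these values changed sign: Tspo 1.14, Ctla2a 0.28, Psmb8 0.54, C1qb 0.086, C1ra 0.86, C4b 0.39, Ccl12 0.54, Gfap 0.37, Msr1 0.0836, Itgam 0.21, Plin4 0.74, Cebpd 0.21, S100a9 2.02 and S100a8 2.35. The antigen presentation median interaction there was 0.0427 and the lipid droplet and lysine degradation genes median interaction 0.0306. The medians were 0.28 for cytokines, 0.30 for activated microglia, 0.16 for glucocorticoid and 0.13 for acyl-CoA genes. The wild-type LPS library in that fit is WT LPS replicate 1. With a CPM minimum the cytokine median was 0.26, over fewer genes.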
